A study of Mus musculus with 12 samples.

Results

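The Kruppel-like factors are transcription factors that bind CACCC and GC-rich DNA through a zinc finger domain at their carboxyl end, and 10 of them (Klf2, Klf3, Klf4, Klf5, Klf6, Klf7, Klf9, Klf10, Klf11 and Klf13) were followed here in mouse embryonic fibroblasts (MEFs) under reprogramming and vitamin B12. The members were chosen by symbol, as table entries whose Ensembl identifier carries one of these names. The rule itself used no measured value, but it was set with earlier results of these data known. All 10 were found among the 55573 genes of the count table, and all 10 passed the filter on low counts that left 19174 genes for testing.

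The fibroblasts came from 3 embryos (E13.5), called clones 1, 2 and 3, of a C57BL/6 strain with a doxycycline-inducible cassette of Oct4 (gene Pou5f1), Sox2, Klf4 and Myc (OSKM). Each clone gave 1 library to each of 4 groups, all kept in iPSC medium for 72 h. MEF had neither doxycycline nor added B12, MEF+B12 had 2 µM B12, OSKM had doxycycline at 1 µg/ml as the labels state it, and OSKM+B12 had both agents. All 4 groups carried the cassette, and since the uninduced cells had no doxycycline, the effects of the drug and of the factors cannot be told apart. The titles of the clone 1 libraries carry a later year than those of the others.

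Members fall into groups by what they do to transcription. Klf2, Klf4 and Klf5, and likewise Klf6 and Klf7, act largely as activators. Klf3 recruits the corepressor CtBP, and Klf9, Klf10, Klf11 and Klf13 recruit Sin3 and histone deacetylases. Klf4 is one of the factors used to make induced pluripotent stem cells, and Klf2 and Klf5 act with it in embryonic stem cells, where they maintain the pluripotent state. In fibroblasts several of these genes respond within minutes to hours to serum, to TGF-beta or to glucocorticoids.

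The libraries held 56971244 to 79236795 counted read pairs, and single members had between 642 (Klf5) and 10115 (Klf6) counts in a library. The biological coefficient of variation of the fit was 8.04%. Fibroblast markers dominated every library, with a summed level of 84290 to 138100 CPM (counts per library size, on a common scale) over 10 genes. Markers of macrophages were present in all libraries, at 1229 to 3118 CPM over 11 genes, whereas 8 endothelial markers summed to at most 10.03 CPM, with Emcn at 0 in all 3 MEF libraries and Cldn5 at 0 in all 3 OSKM+B12 libraries. In bulk RNA, fewer cells of a type and less RNA per cell cannot be told apart.

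The sequences before the start sites of Klf2, Klf3 and Klf4 are shown because the first pair carried the difference between clones described below and Klf4 belongs to the induced set. They are from RefSeq on GRCm38.p6, on the strand of the gene, and end before the transcript start. Capitals mark the CACCC box (CACCC), the GC box (GGGCGG), the E-box (CACGTG) and the MEF2 core (CTA and TAG with 4 bases of any kind between them), searched on both strands. CACCC and GC boxes may overlap, as they do in Klf3.
Klf2, chr8:72318812-72319032, plus strand: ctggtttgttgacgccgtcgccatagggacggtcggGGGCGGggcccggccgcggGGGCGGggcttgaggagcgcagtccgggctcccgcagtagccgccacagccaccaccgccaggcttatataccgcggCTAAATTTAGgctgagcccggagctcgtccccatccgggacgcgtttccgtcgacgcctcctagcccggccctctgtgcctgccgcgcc
Klf3, chr5:64803271-64803387, plus strand: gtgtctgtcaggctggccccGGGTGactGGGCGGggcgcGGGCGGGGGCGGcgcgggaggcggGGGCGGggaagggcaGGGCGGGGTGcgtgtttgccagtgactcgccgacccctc
Klf4, chr4:55532476-55532725, minus strand: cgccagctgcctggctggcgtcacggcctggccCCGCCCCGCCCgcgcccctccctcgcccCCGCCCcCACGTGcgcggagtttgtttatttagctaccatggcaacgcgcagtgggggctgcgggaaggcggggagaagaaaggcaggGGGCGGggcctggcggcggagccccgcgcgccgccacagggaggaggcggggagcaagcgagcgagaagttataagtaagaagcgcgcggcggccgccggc

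GC boxes recurred in all the sequences printed, with 2 in Klf2, 5 in Klf3 and 4 in Klf4, and CACCC boxes occurred only in that of Klf3, with 2. The MEF2 core, the element through which MEF2 proteins are known to act on the Klf2 promoter, was found in Klf2, and an E-box, the element bound by Myc, in Klf4. Windows of 300 bases, from 250 before to 50 after the start, were given for 8 of the 10 members. Of these 8, 7 held a GC box, all but Klf9, against 35.7% of 32851 mouse windows. A CACCC box was in 5 of the 8 (Klf2, Klf3, Klf7, Klf9 and Klf13), against 57.5% of all windows. The MEF2 core was in 3.69% of all windows and in no other member, and the E-box was in 7.15% and also in Klf6 and Klf11. The octamer ATGCAAAT, read by Oct4, was in 0 of the 8 and in 1.74% of all windows, and TATAAA was in 0 of the 8 and in 13.6%. These matches describe letters only, in windows shorter than a regulatory region.

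Each member is a single protein-coding gene in the annotation on GRCm38. Klf4 (ENSMUSG00000003032) lies on chr4:55527143-55532466 on the minus strand. Klf2 (ENSMUSG00000055148) lies on chr8:72319033-72321656, and Klf3 (ENSMUSG00000029178) on chr5:64803388-64832901, both on the plus strand. At most 2% of the 31-base words of any member recurred in transcripts of other genes, so reads could be shared with relatives only to a small extent. Klf3 overlaps C230096K16Rik on its own strand, and Klf7 and Klf9 each overlap a microRNA gene there, Mir6899 and Mir1192.

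Per length, Klf4 was the most abundant member and Klf5 the least. Klf4 had a mean of 40.2 ± 3.14 RPKM (CPM per kilobase of exon, SD, n = 12 libraries), ahead of Klf6, a gene induced by serum and injury, at 30.6 ± 2.82 RPKM. Klf2, known from endothelium and T cells, had 20.5 ± 4.25 RPKM. The ranges of Klf4 and Klf6 did not overlap, and those of Klf6 and Klf2 did, although Klf6 was above Klf2 in all 12 libraries.

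Klf3 and the Sin3-binding Klf9, Klf10 and Klf13 formed the middle of the order. Klf9, a gene induced by glucocorticoids and thyroid hormone, had 10.5 ± 1.58 RPKM, and Klf3 had 10.00 ± 1.49 RPKM. Klf10, first described as an early TGF-beta-inducible gene, had 8.54 ± 1.17 RPKM. Klf13 had 6.76 ± 0.532 RPKM. Klf9 was above Klf3 in 8 of 12 libraries only, so that pair was not ordered by these data. Below them stood Klf7, Klf11 and Klf5. Klf7, an activator known from neurons and adipocyte precursors, had 4.78 ± 0.346 RPKM. Klf11, a relative of Klf10 that likewise responds to TGF-beta, had 4.30 ± 0.655 RPKM and was below Klf7 in 9 of 12 libraries. Klf5, an activator of proliferating epithelium, had 2.54 ± 0.428 RPKM, below Klf11 in all 12. The order depended on the length used. With the longest transcript in place of all exons, Klf3 had 21.5 RPKM and moved above Klf2, Klf10 at 11.7 RPKM moved above Klf9 at 11.2 RPKM, and Klf5 had 3.94 RPKM and stayed lowest.

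**Figure D1:**
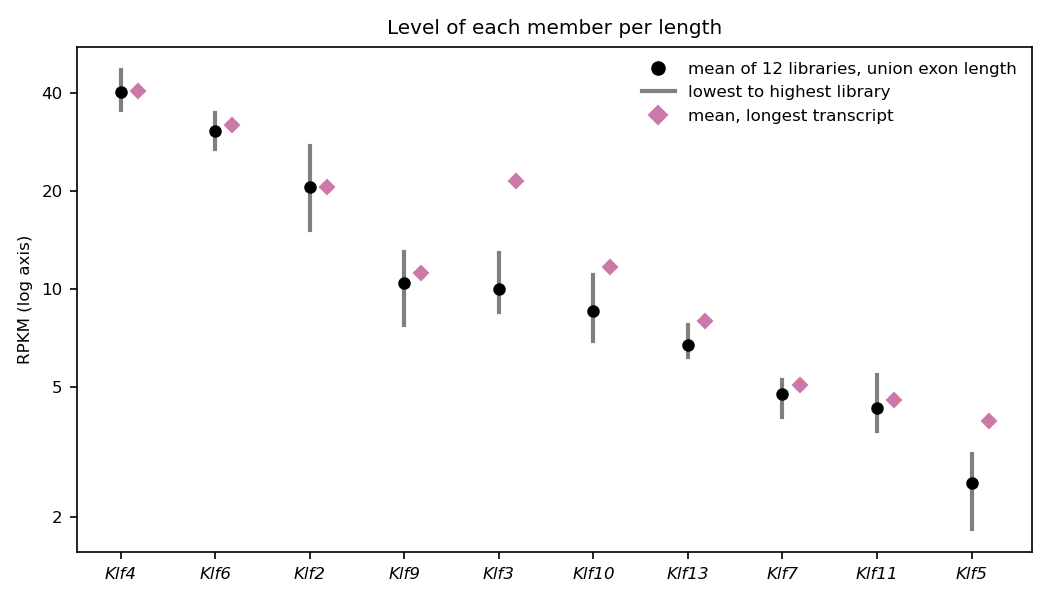
Level of each member in RPKM (log axis), with the mean of 12 libraries as a black point, the lowest to highest library as a grey line and the mean with the longest transcript as the length as a pink diamond. Klf4 leads at 40.2 RPKM and Klf5 is lowest at 2.54 RPKM, and Klf3 moves from 10.00 to 21.5 RPKM with the length used.

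Outside the 10 members, 16 further KLF and SP genes were listed, of which 12 passed the filter. Sp3 at 17.8 RPKM, Klf16 at 8.96 RPKM and Sp1 at 6.29 RPKM were the most abundant, and the erythroid Klf1 had 7 to 15 counts per library. Klf17, a factor of the early embryo, had 0 counts in every library, where 3 counts would be the upper limit that a count of 0 allows.

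Klf4 differed from the other induced factors in that its mRNA was not higher in the induced cells. In MEF, Klf4 stood at 139, 143 and 124 CPM in clones 1, 2 and 3, and in OSKM at 121, 122.5 and 119 CPM. With B12 it was at 119.9, 121 and 118 CPM in uninduced cells and at 115, 119 and 108 CPM in induced cells. The 3 MEF libraries lay above all 9 others, and the induced library was below the uninduced library of the same clone in 6 of 6 pairs. These pairs come from 3 clones, and the share of all genes with either pattern was not counted.

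Klf4 differed between OSKM and MEF by -0.16 ± 0.05 log2 (SE), an OSKM level 0.894 times that of MEF with a 95% interval of 0.835 to 0.958, and did not pass the threshold (adjusted p = 0.163). With B12 the difference was -0.07 ± 0.05 log2 (adjusted p = 0.510), with an interval of -0.17 to 0.03. The upper bounds thus left room for at most 1.02 times the uninduced level in either comparison. A count per gene does not separate reads of the endogenous locus from reads of an introduced copy of the same coding sequence.

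Pou5f1 rose from 0.468, 0.380 and 0 CPM in MEF to 19.3, 18.5 and 2.86 CPM in OSKM (log2 difference 5.65 ± 0.21, adjusted p = 5.95e-07). Sox2 rose from 0.658, 0.522 and 0.378 CPM to 15.5, 13.3 and 2.33 CPM (4.19 ± 0.41 log2, adjusted p = 0.00287). Myc had 22.5, 16.4 and 18.6 CPM in MEF and 53.4, 44.0 and 20.05 CPM in OSKM, with a log2 difference of 0.94 ± 0.24 that did not pass (adjusted p = 0.159). Clone 3 was the lowest of the induced libraries for all of these, and by CPM the added amount was smallest there. In CPM, Klf4 changed by -17.3, -20.8 and -5.36 in clones 1, 2 and 3 without B12, beside gains of 18.9, 18.1 and 2.86 CPM for Pou5f1. With B12 the Klf4 differences were -4.97, -1.90 and -10.2 CPM, beside gains of 20.4, 18.8 and 2.32 CPM for Pou5f1. No clone showed a gain in the Klf4 gene total.

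**Figure D2:**
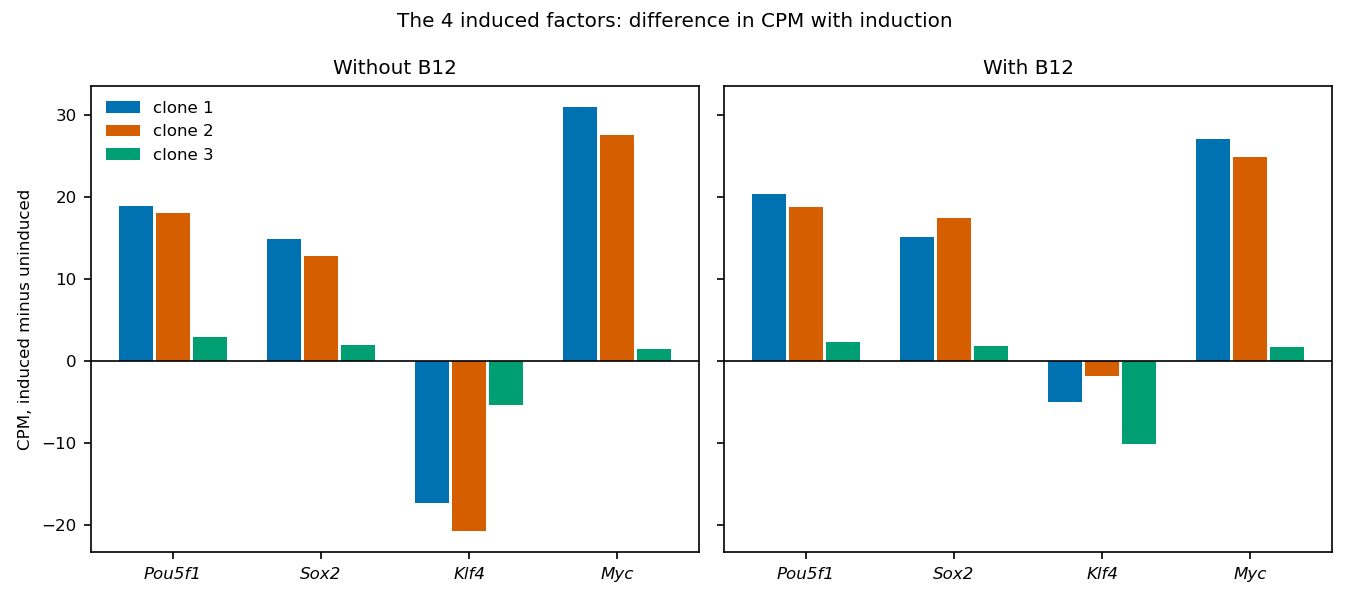
Difference in CPM between the induced and the uninduced library of each clone for the 4 factors of the cassette, without B12 (left) and with B12 (right). Pou5f1, Sox2 and Myc bars are above 0 and smallest in clone 3, and all 6 Klf4 bars are below 0, from -1.90 to -20.8 CPM.

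The fitted induction differences of the members had both signs, positive in both media for Klf3 and Klf10 and negative for Klf2, Klf5 and Klf6. None of the 10 members passed the threshold in OSKM against MEF, where 0.0730% of all 19174 genes did, and none passed with B12, where 0.104% did. At an unadjusted p under 0.05, 6 of 10 members were reached without B12, against 19.0% of all genes, and 6 of 10 with B12, against 14.9%. The median difference of the members was -0.06 log2 without and 0.04 log2 with B12, beside medians of all genes of -0.0081 and 0.0017. DESeq2, another count test, called Klf2 and Klf10 without B12, against 2.54% of all genes, and Klf2 with B12, against 2.17%. With no filter on low counts, edgeR called Klf2 and Klf10 in both comparisons, against 2.06% and 1.95% of all genes.

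Klf2 was at 50.9, 38.0 and 43.2 CPM in MEF and at 28.0, 28.2 and 37.9 CPM in OSKM. In the presence of B12 it was at 48.5, 39.3 and 43.4 CPM in uninduced and at 30.4, 28.6 and 38.0 CPM in induced cells. All 6 induced libraries lay below all 6 uninduced ones, by a narrow margin between clone 3 induced and clone 2 uninduced. The log2 difference was -0.49 ± 0.11 without B12 (adjusted p = 0.159), a level 0.711 times that of MEF, and -0.44 ± 0.11 with B12 (adjusted p = 0.176). The clone differences ranged from -0.86 to -0.19 log2 with induction without B12, and the B12 differences in induced cells from 0.00 to 0.12 log2. The SE rests on a spread shared by all 4 groups, so it understates the spread between clones in the induction difference.

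Klf10 was the member with the opposite pattern. It had 33.9, 30.4 and 32.9 CPM in MEF and 46.3, 38.9 and 35.9 CPM in OSKM. With B12 the values were 33.6, 29.0 and 32.9 CPM uninduced and 42.0, 37.4 and 34.9 CPM induced. Every induced library was above every uninduced one. The difference was 0.31 ± 0.07 log2 without B12 (adjusted p = 0.159), a 1.24-fold level, and 0.26 ± 0.07 log2 with B12 (adjusted p = 0.176).

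Klf6 was lower in the induced cells, at 118, 119.9 and 129.7 CPM in OSKM against 151, 152 and 131 CPM in MEF. With B12 it was at 130.4, 118 and 129.0 CPM induced and 146, 147 and 139 CPM uninduced. The 6 induced libraries again lay below the 6 uninduced ones, with differences of -0.24 ± 0.07 log2 (adjusted p = 0.163) and, with B12, -0.20 ± 0.07 log2 (adjusted p = 0.214). The margin was narrow, with 130.4 CPM in clone 1 of OSKM+B12 against 131.4 CPM in clone 3 of MEF. Separation of all 6 induced from all 6 uninduced libraries was seen upward in 0.751% and downward in 0.370% of all genes, and in the members upward for Klf10 and downward for Klf2 and Klf6.

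Klf3, which binds CtBP, had 108, 110.4 and 102 CPM in MEF and 145, 132 and 106 CPM in OSKM. With B12 the levels were 98.7, 95.6 and 99.6 CPM uninduced and 134, 122 and 95.7 CPM induced. Clones 1 and 2 were raised by induction in both media, and clone 3 induced stood within the uninduced range. The fitted differences were 0.25 ± 0.09 log2 (adjusted p = 0.195) and 0.24 ± 0.09 log2 with B12 (adjusted p = 0.242).

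Klf5 was at 14.3, 15.2 and 14.6 CPM in MEF and at 9.52, 11.5 and 16.2 CPM in OSKM, and the groups overlapped because clone 3 was highest. With B12 it was at 13.2, 14.98 and 14.7 CPM uninduced and at 9.88, 11.03 and 13.4 CPM induced, with clone 3 again the highest induced library. The differences were -0.27 ± 0.12 log2 (adjusted p = 0.255) and -0.33 ± 0.12 log2 with B12 (adjusted p = 0.238).

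The remaining 4 members, Klf7, Klf9, Klf11 and Klf13, differed less. Klf13 was at 48.8 ± 1.13 CPM in MEF and at 53.3 ± 1.82 CPM in OSKM (SD, n = 3), without overlap of the libraries, with a difference of 0.13 ± 0.06 log2 (adjusted p = 0.288), and of 0.18 ± 0.06 log2 with B12 (adjusted p = 0.213). Klf9 differed by 0.13 ± 0.06 and 0.08 ± 0.06 log2, with adjusted p-values of 0.280 and 0.610. Klf7 went from -0.08 ± 0.08 log2 without B12 to 0.14 ± 0.08 log2 with B12, and Klf11 gave -0.04 ± 0.07 and 0.01 ± 0.07 log2. In Klf9 and Klf11 the clones differed more than the groups. Klf9 was lowest in clone 1 in each of the 4 groups, at 37.5 to 47.7 CPM against 47.9 to 62.5 CPM in the other clones. Klf11 was highest in clone 1 in each group, at 21.0 to 23.7 CPM against 16.0 to 17.9 CPM. The year in the titles also separates clone 1 from the others, and its part in these levels cannot be told apart from that of the embryo.

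The ranges of the 3 OSKM and the 3 MEF libraries did not overlap in 5 members, with Klf10 and Klf13 higher and Klf2, Klf4 and Klf6 lower, against 9.09% of all genes. With B12 this held for 3 members, Klf10 higher and Klf2 and Klf6 lower, against 10.5% of all genes. These comparisons use different libraries of the same clones.

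**Figure D3:**
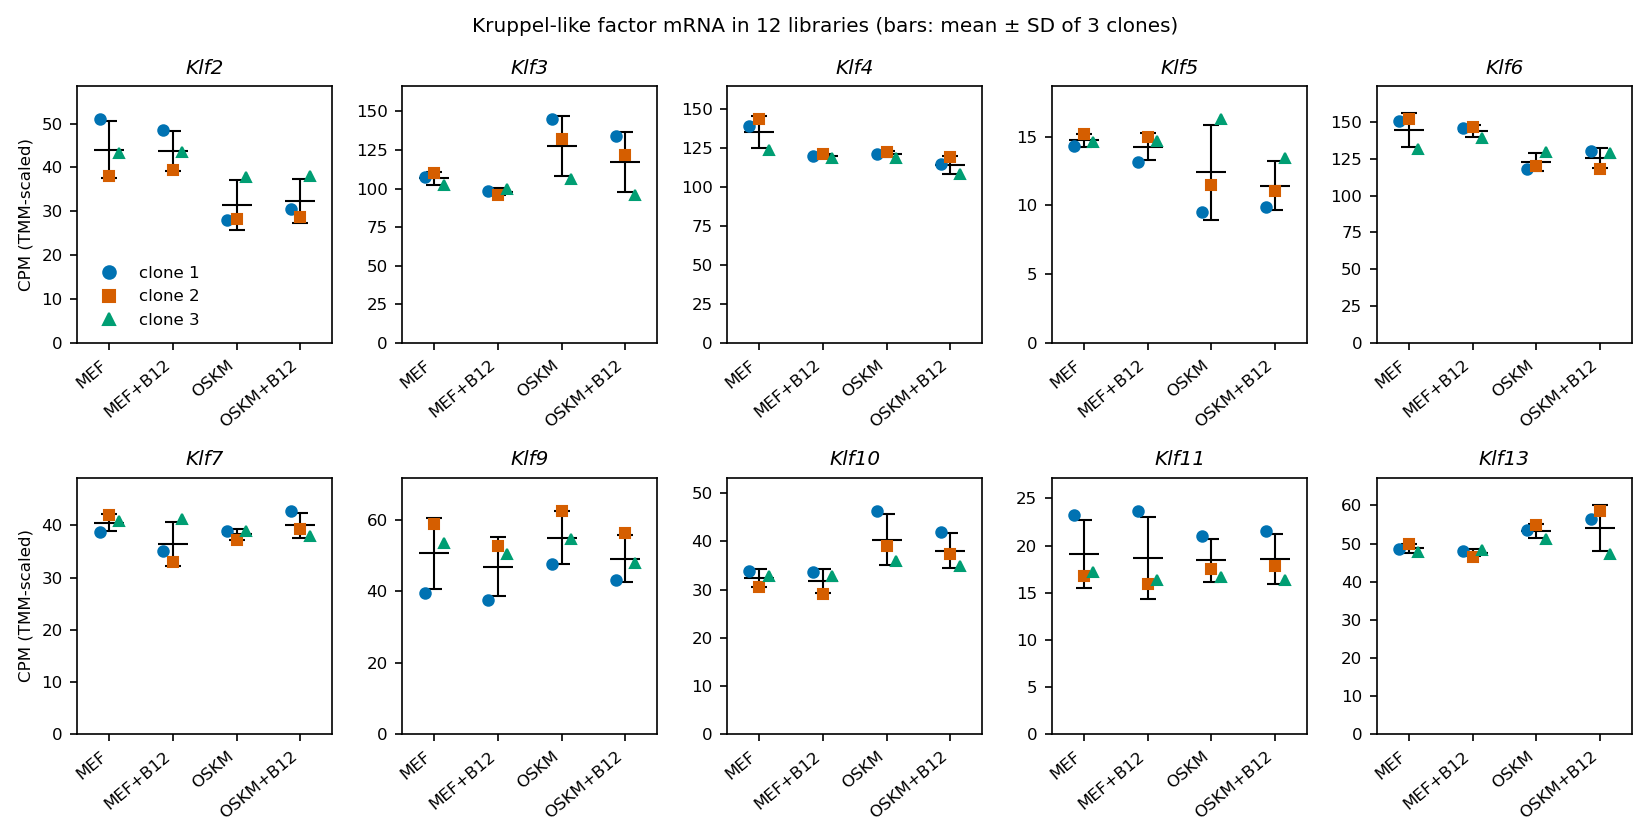
CPM of each member in the 12 libraries, with clones as coloured symbols and the mean ± SD of 3 clones as black bars, in each of the 4 groups. Klf2 and Klf6 are lower and Klf10 is higher in every induced library than in every uninduced one, and the clone 3 triangle in the induced groups sits nearest to the uninduced level for most members.

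The response to induction differed between clones in Klf2 and Klf3. The test of a clone-by-state term asks whether the response to induction was equal in the 3 embryos. It called 2 of 10 members, Klf2 (adjusted p = 0.0142) and Klf3 (adjusted p = 0.0309), where 2.15% of all genes were called. Without repeat cultures of an embryo, the test measures clone differences against the scatter of the B12 differences between clones. Differences between embryos and between single cultures thus cannot be told apart. At an unadjusted p under 0.05, 7 of 10 members were reached, against 14.8% of all genes.

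The Klf2 difference with induction was -0.86, -0.43 and -0.19 log2 in clones 1, 2 and 3, and -0.67, -0.46 and -0.19 log2 with B12. It was thus negative in every clone, largest in clone 1 and smallest in clone 3. The Klf3 difference was 0.43, 0.26 and 0.06 log2, and 0.44, 0.35 and -0.06 log2 with B12, and so nearly absent in clone 3. Neither call held without clone 1 or without clone 3, in fits with fewer libraries, and without clone 1 both stayed near the threshold. Without clone 1, which also leaves only libraries of the earlier year, the adjusted p was 0.0702 for Klf2 and 0.0600 for Klf3. Without clone 3 it was 0.871 for both. With only the OSKM library of clone 1 left out, the adjusted p was 0.0112 for Klf2 and 0.0211 for Klf3. With no filter on low counts Klf5 was called as well, making 3 of 10, against 3.80% of all genes.

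Clone 3 had the smallest absolute difference with induction in 9 of 10 members without B12, all but Klf7, where 56.3% of all genes had their smallest in clone 3. With B12 it was again 9 of 10, all but Klf4, against 50.9% of all genes. In CPM the gains in Pou5f1, Sox2 and Myc were also smallest in clone 3, although on the log2 scale that of Pou5f1 without B12 was largest there (5.28, 5.50 and 6.55 in clones 1, 2 and 3, from 0 counts in MEF of clone 3), and the part of the amount of induced factor in the members' differences was not tested. For the other members the adjusted p of the clone term was 0.104 (Klf5), 0.130 (Klf10), 0.187 (Klf9), 0.251 (Klf6), 0.318 (Klf11), 0.479 (Klf13), 0.525 (Klf7) and 0.963 (Klf4). Klf4 thus had the least sign of a clone-dependent response, with all its differences between -0.02 and -0.23 log2.

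The fit of all 12 libraries called 0 members, while in clones 1 and 2 alone 5 of 10 passed the threshold without B12, against 6.87% of all genes. These were Klf2 (-0.65 log2, adjusted p = 0.0124), Klf5 (-0.50 log2, 0.0149) and Klf6 (-0.34 log2, 0.0191), which fell, and Klf3 (0.34 log2, 0.0192) and Klf10 (0.40 log2, 0.00881), which rose. With B12 the 5 called were Klf2 (-0.57 log2, adjusted p = 0.0195), Klf5 (-0.43 log2, 0.0256), Klf3 (0.39 log2, 0.0120), Klf10 (0.34 log2, 0.0168) and Klf13 (0.28 log2, 0.0337), against 5.22% of all genes. Leaving out clone 3 was planned as one of 3 such omissions. As clone 3 had the smallest difference in most members, leaving it out favoured such calls, and they are no separate support. Without clone 1 or without clone 2, only 1 or 2 of all genes passed in either comparison, and 0 of the members. At an unadjusted p under 0.05, 3 members were reached without clone 1 in each comparison (1459 and 1326 of 19102 genes). Without clone 2 it was 2 and, with B12, 1 member (1308 and 1009 of 19314 genes). Without clone 3 it was 8 and, with B12, 7 members (4647 and 3564 of 19231 genes). The calls thus depended on which clone was left out.

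**Figure D4:**
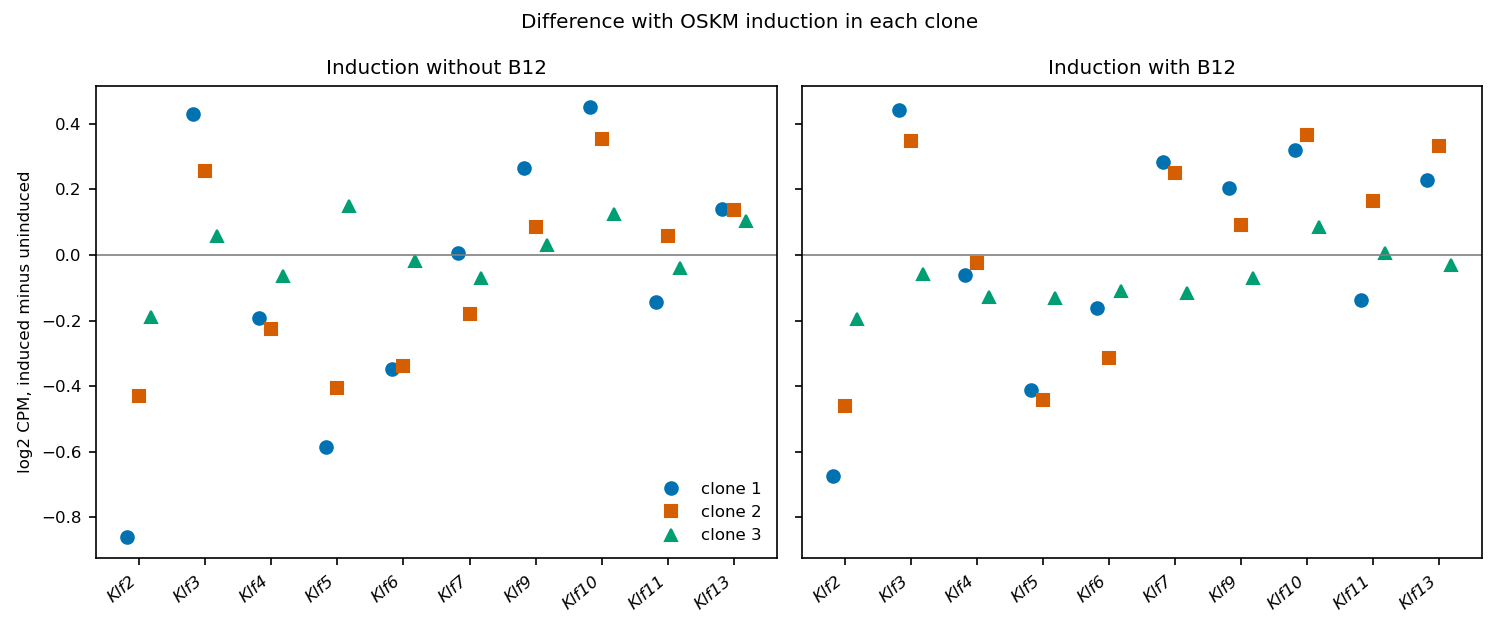
Difference in log2 CPM between the induced and the uninduced library of each clone for the 10 members, without B12 (left) and with B12 (right), with 0 as a grey line. Clone 1 Klf2 is the furthest from 0, at -0.86 without B12, and the clone 3 triangles lie closest to 0 in 9 of 10 members on each side.

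No member passed the threshold with B12, and the lowest fitted averages, those of Klf9, Klf4 and Klf3, were small. The average over both states called 0 of 10 members, where 3.84% of all genes were called. At an unadjusted p under 0.05 it reached 2 of 10, a share near the 15.5% of all genes. B12 in uninduced cells and B12 in induced cells each called 0 of 10, against 1.38% and 1.06%, and reached 1 of 10 each at an unadjusted p under 0.05, against 10.3% and 9.82%. DESeq2 called 1 member, Klf4, in the average, where it called 4.87% of all genes, and in uninduced cells, where it called 2.45%.

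Klf4 fell short of the threshold by little, with -0.13 ± 0.03 log2 in the average (adjusted p = 0.0522), a level 0.915 times that without B12 with a 95% interval of 0.872 to 0.961. DESeq2 gave it an adjusted p of 0.0150. In uninduced cells the difference was -0.17 ± 0.05 log2 (adjusted p = 0.116) and in induced cells -0.08 ± 0.05 log2 (adjusted p = 0.584). The Klf4 level was lower with B12 in 6 of 6 pairs of libraries, by -0.21, -0.24 and -0.07 log2 in uninduced and by -0.08, -0.04 and -0.13 log2 in induced cells of clones 1, 2 and 3. The pairs, here and for Klf9 and Klf3 below, come from 3 clones, and the share of all genes lower in 6 of 6 was not counted. The MEF and MEF+B12 libraries did not overlap for Klf4, and those of OSKM and OSKM+B12 did.

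Klf9 was likewise lower in 6 of 6 pairs, by -0.14 ± 0.04 log2 in the average (adjusted p = 0.126). The separate values were -0.11 ± 0.06 log2 in uninduced cells (adjusted p = 0.593) and -0.16 ± 0.06 log2 in induced cells (adjusted p = 0.385). Klf3 was lower in 6 of 6 pairs as well, with -0.12 ± 0.06 log2 in the average (adjusted p = 0.394), -0.12 ± 0.09 log2 in uninduced cells (0.742) and -0.12 ± 0.09 log2 in induced cells (0.679). Its ranges did not overlap between MEF and MEF+B12. In all, 2 of 10 members, Klf3 and Klf4, were separated in that comparison, against 9.39% of genes, and 0 of 10 in OSKM+B12 against OSKM, where 7.53% of genes were.

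The other 7 members had average B12 differences between -0.08 log2 (Klf5) and 0.02 log2 (Klf2), with adjusted p-values of 0.651 to 0.949. The interaction, the B12 difference in OSKM minus that in MEF, called 0 of 10 members and 0.00% of all genes by edgeR, and DESeq2 also called 0. At an unadjusted p under 0.05 edgeR reached 0 members and 1.42% of genes. Klf7 had the largest value, 0.22 ± 0.11 log2 with a 95% interval of -0.01 to 0.46 (adjusted p = 1.00). It was lower with B12 in uninduced clones 1 and 2 and higher in the induced cells of the same clones.

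Macrophage markers moved with B12 beside these values. Of 11 markers 9 passed the threshold as higher with B12 in the average, and the median of the list was 0.50 log2 against -0.0131 over all genes. Aif1 was higher without passing. Cx3cr1 went the other way, at -0.45 ± 0.20 log2 (adjusted p = 0.296), and was lower in every clone in both states. The sum of the 11 markers was 1229 to 2352 CPM in MEF and 1856 to 3118 CPM in MEF+B12, and 1246 to 2167 CPM in OSKM and 1901 to 2490 CPM in OSKM+B12. Lyz2 made up much of it, with means of 1063, 1414, 976 and 1275 CPM in MEF, MEF+B12, OSKM and OSKM+B12. No macrophage marker was at 0 throughout a group, and the part of these cells in the Klf4, Klf9 and Klf3 differences was not tested. Of 10 fibroblast markers, 1 (Prrx1) passed the threshold as lower with B12 in the average, by -0.15 ± 0.03 log2 (adjusted p = 0.0336), a size near that of Klf4. The median of this list was -0.11 log2, and 5 of 10 reached an unadjusted p under 0.05, against 15.5% of all genes.

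**Figure D5:**
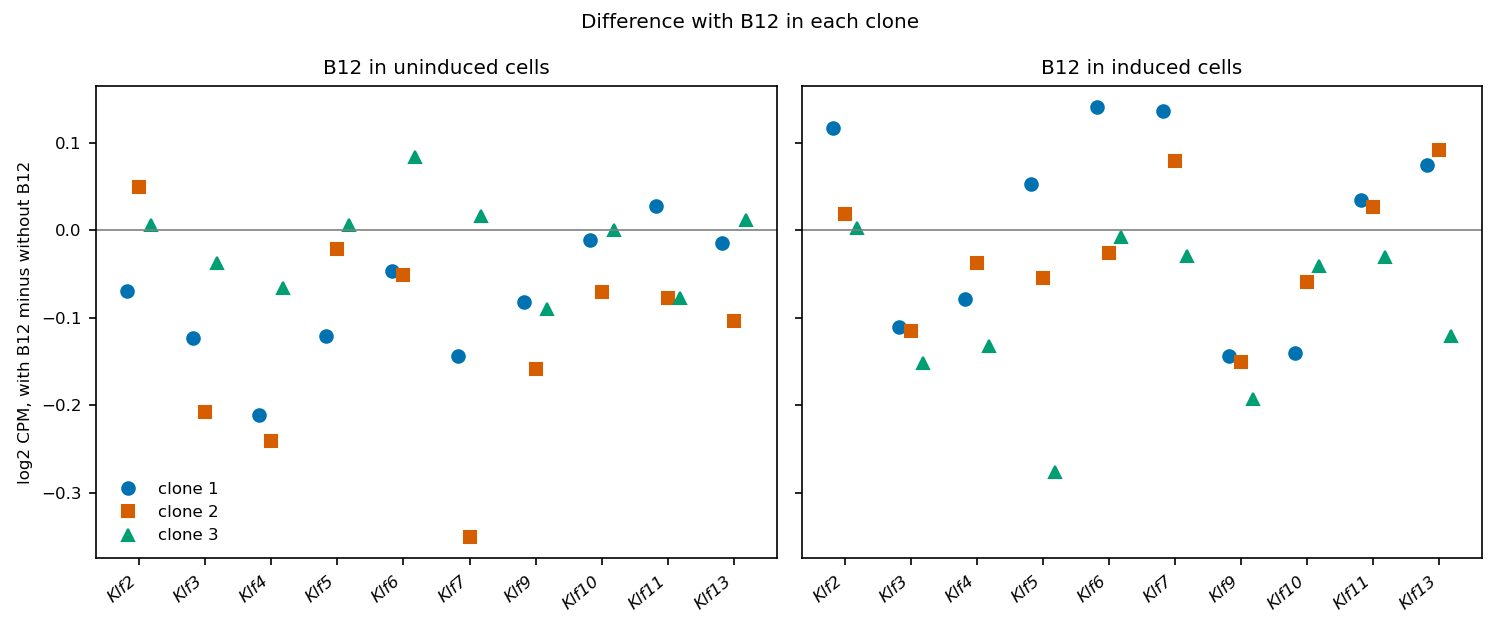
Difference in log2 CPM between the library with and without B12 of each clone for the 10 members, in uninduced (left) and induced (right) cells, with 0 as a grey line. Klf3, Klf4 and Klf9 lie below 0 in all 6 pairs, and the other members scatter about 0, with Klf7 of uninduced clone 2 lowest at -0.35.

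The partners and regulators of the family were listed beside the members. Of 10 cofactors, among them the CtBP and Sin3 genes and the histone deacetylases, all were tested and 0 passed in either induction comparison, with medians of -0.04 and, with B12, -0.03 log2. Of the other KLF and SP genes 0 of 12 tested passed, with medians of -0.07 and 0.00 log2, and 0 had a called clone term. The largest fitted differences without B12 were those of scarce genes, Klf1 at -0.48 ± 0.29 log2 (adjusted p = 0.437) and Sp6, with 1 to 21 counts per library, at -0.46 ± 0.69 log2 (adjusted p = 0.749).

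Genes that act on the members, the Mapk7 (Erk5) kinase cascade with its MEF2 targets, Srf, the glucocorticoid receptor gene Nr3c1 and the ubiquitin ligase genes Wwp1 and Fbxw7, also gave 0 of 10 in each induction comparison. The clone term was called for 1 of 10, Mef2d (adjusted p = 0.0228), a MEF2 transcription factor. Mef2d differed with induction by 0.37, 0.31 and -0.09 log2 in clones 1, 2 and 3, and by 0.37, 0.25 and -0.04 log2 with B12, a direction opposite to that of Klf2 in clones 1 and 2. Mapk7, which acts upstream of MEF2 proteins, was within 0.11 log2 of 0 in every clone.

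Epithelial and pluripotency genes linked to Klf4 had a median difference of 0.48 log2 without and 0.64 log2 with B12 over 14 tested of 18, with 0 past the threshold in either comparison. The clone term was called for 4 of 14, the keratin genes Krt14, Krt19 and Krt8 and the desmosome gene Perp. Krt14, a keratin of basal epidermis, had differences of 3.54, 2.74 and 0.44 log2 in clones 1, 2 and 3 (adjusted p = 0.00446), while Klf4 itself was lower in all of them. Of 6 keratinocyte and epithelial markers the sum rose no higher than 13.4 CPM in any library, so these were low levels beside the fibroblast genes.

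Endothelial genes linked to Klf2 and Klf4 gave 0 of 8 in the induction comparisons and a called clone term for 1, Tek (adjusted p = 0.00027). Tek, the angiopoietin receptor, was higher with induction by 1.85, 1.49 and 0.38 log2 in clones 1, 2 and 3. The known Klf2 targets Thbd and S1pr1 did not pass either test. Thbd differed by 0.11, 0.24 and 0.08 log2, and S1pr1 by -0.29, -0.07 and 0.13 log2, in clones 1, 2 and 3 without B12.

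The gene lists tied to the inducers of Klf6, Klf9, Klf10 and Klf11 had 0 calls in both induction comparisons. Immediate early genes (12 of 12 tested) had medians of -0.18 log2 without and -0.10 log2 with B12, glucocorticoid-responsive genes (10 of 10) -0.19 and -0.17 log2, and early TGF-beta targets (11 of 11) 0.04 and -0.04 log2. Adipogenic factors (6 of 8 tested) had -0.15 and -0.16 log2. The clone term was called for Mt2 and Sgk1 among the glucocorticoid-responsive genes and for Ccn1 and Id1 among the TGF-beta targets. Id1, an inhibitor of basic helix-loop-helix factors, had its largest difference in clone 2, with 0.97, 1.43 and 0.00 log2 in clones 1, 2 and 3, unlike Klf2 and Klf3, which moved most in clone 1. In the B12 average 0 genes of these lists, of the cofactors, of the regulators and of the other KLF and SP genes passed.

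The levels of the members were also compared with each other over the libraries. After removing the mean of each clone, log2 CPM over the 12 libraries gave a Pearson's r of -0.965 between Klf10 and Klf2, -0.950 between Klf10 and Klf6 and 0.936 between Klf10 and Klf3. Klf2 and Klf5 had 0.912, while Klf4 had -0.20 with Klf3 and 0.11 with Klf9. A strong value between members with induction differences, of opposite or of the same sign, restates those differences, as only clone means were removed. These values describe 12 points that share clones, states and title years.

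The same measure, with the same limit, gave the genes most like each member among 9847 genes of sufficient level. For Klf4 these included Katnal1 (0.958) and Zc2hc1a (0.953). Nearest to Klf2 was Rhob (0.991), a small GTPase gene, to Klf3 Kank2 (0.983), to Klf5 Pkd2 (0.980) and to Klf6 Cd164 (0.983). Among the others, Klf10 was nearest to Pcyt1b (0.995), Klf13 to Fmnl2 (0.983) and Klf9 to Acsf2 (0.977). The closest genes to Klf7, Fam120c (0.935), and to Klf11, Fbxo21 (0.914), were less like them.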

How the data were processed

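The study measured poly(A) RNA of 12 libraries (4 groups, 3 clones). The authors sequenced strand-specific libraries as read pairs, aligned them with STAR 2.5.2 to mm10 (GRCm38) and counted pairs per gene with featureCounts. The deposited values are raw counts. Symbols and exon lengths were taken from GENCODE M21, which matched 55480 identifiers and left 93 unmatched. CPM used TMM factors (0.934 to 1.06), and log2 CPM a prior count of 2. The quasi-likelihood test of edgeR 4.0.16 (R 4.3.3) was fitted once to the 12 libraries with group and clone, over 19174 genes kept by filterByExpr, with Benjamini-Hochberg adjustment over all of them and a threshold of 0.05. The clone term came from a second fit, of clone by state plus B12 nested in state. Clone was blocked, as every embryo contributed 1 library per group. Deviations from group means correlated at 0.270 to 0.687 across genes in 18 same-clone pairs. In 36 pairs of different clones and different groups the correlation was at most 0.170. Taking out the mean of 3 clones by itself lowers the values between different clones. No 2 libraries were identical (0 pairs). Intervals cover 95%. Members, gene lists and tests were chosen with earlier results of these data known. Named genes outside the family were those past the threshold, those of largest difference, or those with a role beside a member, and those nearest in r among genes with a mean log2 CPM of at least 3. Alternatives were DESeq2 1.42.0, its size factors, library totals, other count filters, fits of 2 groups alone, omission of the block, and omission of single clones or of the OSKM library of clone 1. Some genes are not reported here.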

Additional observations from a re-analysis of the deposited data

Results flagged for a closer look

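The difference with induction was not equal in the 3 clones for Klf2, by the test of the clone-by-state term (adjusted p = 0.0142), with -0.86 log2 in clone 1, -0.43 in clone 2 and -0.19 in clone 3 without B12. Klf3 was marked by the same test (adjusted p = 0.0309), with 0.43, 0.26 and 0.06 log2. No embryo had a repeat culture in a group, so this test does not separate embryos from single cultures.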

How the results depend on the processing

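No member passed the threshold in either induction comparison in the analysis reported, and this count moved with the setting. DESeq2 called 2 members in OSKM against MEF (Klf2 and Klf10) and 1 with B12 (Klf2), and without a filter on low counts the numbers were 2 and 2 (Klf2 and Klf10 in both). Leaving out 1 clone gave 0 to 5 members in each of these comparisons. DESeq2 also called 1 member (Klf4) in the B12 average and 1 (Klf4) in uninduced cells, with an adjusted p of 0.0405. The clone term gave 0 to 2 members when 1 clone was left out, and without a filter 3, with Klf5 added (adjusted p = 0.0139). The cause of these shifts was not tested. Without the block for the clone pairing, 0 members were called in each of the 6 comparisons, as were 0 of all genes in 5 of them and 90 in the B12 average, and Klf11 with B12 went to -0.00 log2. Other signs turned only for differences near 0. With library totals, Klf11 was 0.01 log2 in OSKM against MEF and 0.01 in the B12 average, and Klf13 was 0.02 in that average. Without the OSKM library of clone 1, the B12 average was -0.04 log2 for Klf2 and -0.01 for Klf6. With 1 clone left out, Klf11 ranged from -0.08 to 0.01 log2 in OSKM against MEF and from -0.07 to 0.08 with B12. In the B12 average Klf2 ranged up to 0.04 log2, Klf6 up to 0.04, Klf11 up to 0.02 and Klf13 from -0.03 to 0.03.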
